A study of Mus musculus with 38 samples.

Results

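The nuclear-encoded genes of oxidative phosphorylation were followed in neural stem/progenitor cells (NSPCs) of the mouse subventricular zone. They were chosen by symbol: Nduf followed by a, b, c, s or v, Uqcr, Cox followed by a digit from 4 to 8, Atp5, and Sdha, Sdhb, Sdhc and Sdhd, with names that hold -ps (1 gene, Atp5l-ps1) left out. This gave 90 of the 25965 genes in the RNA table and the same number of genes in the promoter table, where they had 288 of 72923 windows. Of the 90, 36 encode subunits of complex I and 5 encode complex I assembly factors (Ndufaf1, Ndufaf2, Ndufaf3, Ndufaf4 and Atp5sl). A further 4 were counted with complex II, 8 with III, 20 with IV and 16 with V. The last 16 include Atp5s, coupling factor B, whose RefSeq symbol is Dmac2l. Ndufa4 was counted with complex IV, of which it is now regarded as a subunit. Cox4nb matched the rule by name alone: it is the neighbour of Cox4i1 and encodes no subunit, and it was kept as a group of its own.

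NSPCs came from male C57BL/6JBabr mice aged 3 months (young adult) or 18 months (aged), with 3 derivations per age, each from 5 pooled mice, and were grown as neurospheres in EGF and FGF to passage 2. mRNA was sequenced from each derivation, and C57BL/10 mice kept in a separate facility gave 1 derivation of each age. ChIP for H3K4me3 and H3K27me3 was taken from a table that gives 1 value per age, pooled over 3 replicates, and bisulphite (BS) and oxidative bisulphite (oxBS) sequencing as 3 libraries per age. Neurospheres hold stem cells and their dividing progeny selected by growth factors, so they are a model of cultured NSPCs and not of the tissue. The 8 RNA libraries held 16952483 to 41053986 reads, of which 65.5% to 69.3% lay on genes. The summed level of 8 NSPC markers was 6858 to 8556 RPM (reads of a gene scaled to the total of its library) in the 6 C57BL/6JBabr libraries, that of 6 microglia markers 5.32 to 7.69 RPM and that of 4 endothelial markers 1.76 to 2.97 RPM. Of the microglia markers, Cx3cr1, Aif1 and Ptprc were at or within 1 read of 0 in all 8 libraries, while Csf1r, at 2.31 to 2.76 log2 RPM, made up most of the sum, and P2ry12 had reads in each library.

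Complex I takes electrons from NADH and complex II from succinate, complex III passes them on to cytochrome c, and complex IV gives them to oxygen. Complexes I, III and IV pump protons across the inner mitochondrial membrane, and the ATP synthase, complex V, uses their return to make ATP. All complexes other than II also hold subunits that mitochondrial DNA encodes, so the nuclear genes described here supply part of each machine. Neural stem cells are known to draw on glycolysis and to rely more on respiration as their progeny differentiate.

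The members were among the more abundant transcripts of these cells. Of the 84 that passed the filter of a mean log2 RPM of at least -2 over the 6 C57BL/6JBabr libraries, 27 lay in the top 10% of all 14858 genes that passed, and the median member stood at percentile 83.7. To compare genes with each other, levels were scaled to the length of a chosen GENCODE vM21 transcript of each gene. That transcript need not be the one counted. On this scale the median member was at 6.18 log2 RPM per kb, against 2.64 for all genes. Medians by complex were 5.83 log2 RPM per kb in complex I, 6.44 in II, 6.65 in III, 7.30 in IV and 6.82 in V, and 2.76 for the complex I assembly factors. The assembly factors, which help to build the complex and are not part of it, thus lay near the level of an ordinary gene. Summed over all members, the level ranged from 7235 RPM (aged derivation 2) to 8908 RPM (young adult derivation 3), while the 13 subunits encoded by mitochondrial DNA summed to 22752 to 31759 RPM.

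**Figure D1:**
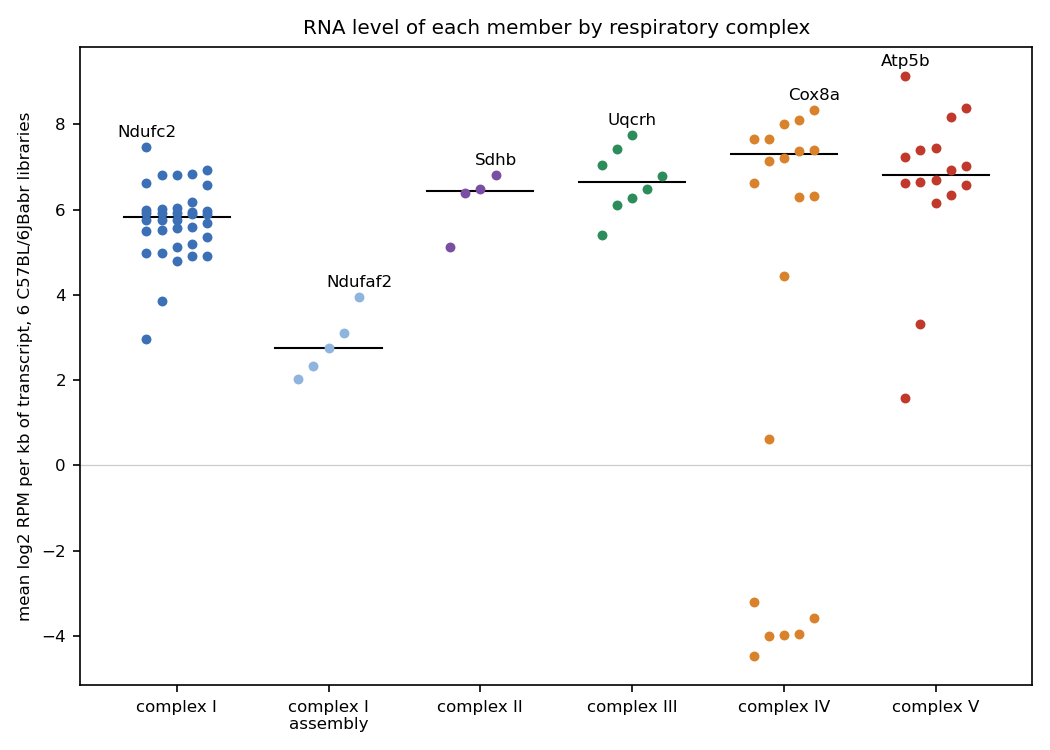
Mean level of each member over the 6 C57BL/6JBabr libraries, in log2 RPM per kb of transcript, by respiratory complex; points are genes, the bar is the median of the genes that passed the filter, and the highest gene of each group is named. The 6 points under -3 in complex IV are isoforms that were close to 0 reads.

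The highest member of each complex was abundant in every library, though its level varied between libraries. Ndufc2, an accessory subunit of complex I, stood at 6.99, 7.02 and 6.96 in young adult derivations 1 to 3 and 6.87, 6.75 and 6.89 in aged derivations 1 to 3 (log2 RPM). Sdhb, the iron-sulphur subunit of complex II, stood at 6.97, 7.06 and 7.16 in young adult and 7.03, 6.72 and 7.03 in aged NSPCs. Uqcrh, the hinge protein of complex III, stood at 6.92, 6.95 and 6.94 in young adult and 6.99, 6.67 and 6.79 in aged NSPCs. Each of these 3 genes was lowest in aged derivation 2, and young adult and aged values did not overlap for Ndufc2 alone. Cox8a, a small subunit of complex IV, was at 7.53, 7.52 and 7.47 in young adult and 7.58, 7.24 and 7.48 in aged NSPCs, and Atp5b, the catalytic beta subunit of the ATP synthase, at 10.12, 10.11 and 10.16 in young adult and 10.12, 9.85 and 10.08 in aged NSPCs. These too were lowest in aged derivation 2 and highest in different libraries. Per kb they reached 7.46 (Ndufc2), 6.80 (Sdhb), 7.75 (Uqcrh), 8.33 (Cox8a) and 9.13 (Atp5b) on the log2 RPM per kb scale, and Ndufaf2, the highest assembly factor, 3.95.

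Within complex II, all 4 subunits were abundant in every library. Sdha, the flavoprotein that oxidises succinate, was at 7.96, 7.99 and 8.21 in young adult and 7.86, 7.91 and 8.18 in aged NSPCs (log2 RPM). Sdhc and Sdhd anchor the enzyme in the membrane; Sdhc was at 6.64, 6.85 and 6.96 in young adult and 6.68, 6.58 and 6.95 in aged NSPCs. Sdhd was at 6.76, 6.64 and 6.85 in young adult and 6.68, 6.54 and 6.71 in aged NSPCs. Per kb the order was Sdhb (6.80), Sdha (6.48), Sdhd (6.40) and Sdhc (5.11), and Sdha and Sdhd differed by less than the SD between derivations of either gene.

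Complexes IV and V use alternative isoforms in different tissues, and in several sets of complex IV the NSPCs had chosen sharply among them. Cox8a was far above its muscle-type relative Cox8b and the testis-type Cox8c: Cox8b had 1 read in 1 library and 0 in the other 7, and Cox8c had 0 reads in all 8. Cox6a1 was at 7.12, 7.27 and 7.31 in young adult and 7.27, 6.91 and 7.27 in aged NSPCs (log2 RPM), while the heart and muscle isoform Cox6a2 had 7 reads in aged derivation 1, 1 in young adult derivation 1 and 0 in the other 6 libraries. The ubiquitous Cox4i1 was at 7.76, 7.79 and 7.74 in young adult and 7.86, 7.48 and 7.65 in aged NSPCs, against 0 to 6 reads per library for Cox4i2, which is known from lung and hypoxic cells. Ndufa4 was at 7.07, 6.90 and 7.00 in young adult and 7.02, 6.75 and 6.97 in aged NSPCs, against 0 to 3 reads for the hypoxia-induced Ndufa4l2. Cox7b was at 6.45, 6.31 and 6.43 in young adult and 6.25, 6.11 and 6.38 in aged NSPCs, against 0 to 2 reads for Cox7b2. In each of these sets 1 isoform supplied nearly all reads in both ages and both strains. The 6 near-silent genes were those that failed the filter on low values.

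The other sets were less one-sided. Cox7a2 was at 6.62, 6.60 and 6.60 in young adult and 6.57, 6.26 and 6.58 in aged NSPCs (log2 RPM) and Cox7a2l, which helps to join complexes III and IV into supercomplexes, at 6.81, 6.81 and 6.67 in young adult and 6.89, 6.62 and 6.60 in aged NSPCs. Cox7a1, the muscle isoform, was weak but present at -1.19, -0.91 and 0.10 in young adult and -0.62, -1.47 and -0.30 in aged NSPCs, which is 9 to 28 reads in the young adult and 10 to 32 in the aged libraries. Cox6b1 was at 7.00, 7.09 and 7.01 in young adult and 7.14, 6.71 and 6.87 in aged NSPCs and Cox6b2, known as the testis isoform, at 3.46, 3.98 and 4.13 in young adult and 3.31, 3.41 and 3.68 in aged NSPCs. Cox6b2 was thus the one tissue-restricted isoform of complex IV with a clear level. The c subunit of the ATP synthase ring, which carries the protons, is encoded by Atp5g1, Atp5g2 and Atp5g3. Atp5g3 was the highest at 8.05, 7.83 and 8.01 in young adult and 7.93, 7.76 and 7.84 in aged NSPCs. Atp5g2 was at 6.22, 6.18 and 6.22 in young adult and 6.30, 5.92 and 6.13 in aged NSPCs. Atp5g1 was at 5.60, 5.61 and 5.65 in young adult and 5.60, 5.30 and 5.50 in aged NSPCs. However, the level of Atp5g2 rests on reads that also match other loci, as described with the strains. Atp5g1 and Cox7a2l share part of their sequence with other loci too, so their levels and order are also uncertain. In C57BL/10, Cox7a2l had 1788 (young adult) and 1412 (aged) reads, below the 3506 and 2181 of Cox7a2.

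Promoter sequences are shown for the highest member of each complex, for Ndufs4 and Cox6a1 as carriers of motifs that were more frequent among members, and for the near-silent Cox8b for contrast. RefSeq start sites (GRCm38.p6) were matched for 73 of the 90 members and 16635 genes in all, from 250 bases before to 50 after the start. Capitals mark the CCAAT box, the letters TATAAA, the ETS motif CCGGAAG, the palindromic NRF1 motif (GCGCA followed directly by its own reverse complement) and the YY1 motif AAGATGGCG. Each was searched on both strands, and no motif overlapped one of another kind in a member.
Ndufc2 (chr7:97399753-97400052, plus strand): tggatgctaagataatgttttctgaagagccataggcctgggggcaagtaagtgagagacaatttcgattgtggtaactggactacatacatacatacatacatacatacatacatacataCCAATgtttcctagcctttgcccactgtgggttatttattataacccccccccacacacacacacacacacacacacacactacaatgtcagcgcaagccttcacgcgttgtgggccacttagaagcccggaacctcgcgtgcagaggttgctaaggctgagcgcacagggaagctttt
Ndufs4 (chr13:114388045-114388344, minus strand): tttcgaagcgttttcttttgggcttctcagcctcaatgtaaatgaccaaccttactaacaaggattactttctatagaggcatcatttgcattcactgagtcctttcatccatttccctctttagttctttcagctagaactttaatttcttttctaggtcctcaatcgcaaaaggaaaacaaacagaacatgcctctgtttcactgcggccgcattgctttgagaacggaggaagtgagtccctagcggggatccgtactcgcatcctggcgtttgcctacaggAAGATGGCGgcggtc
Sdhb (chr4:140961021-140961320, plus strand): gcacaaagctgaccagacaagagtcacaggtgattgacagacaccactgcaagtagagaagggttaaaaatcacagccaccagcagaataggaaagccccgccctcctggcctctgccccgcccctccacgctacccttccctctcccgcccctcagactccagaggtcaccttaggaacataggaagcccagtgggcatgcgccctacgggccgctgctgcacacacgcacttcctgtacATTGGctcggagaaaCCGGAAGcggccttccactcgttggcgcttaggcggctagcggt
Uqcrh (chr4:116075021-116075320, minus strand): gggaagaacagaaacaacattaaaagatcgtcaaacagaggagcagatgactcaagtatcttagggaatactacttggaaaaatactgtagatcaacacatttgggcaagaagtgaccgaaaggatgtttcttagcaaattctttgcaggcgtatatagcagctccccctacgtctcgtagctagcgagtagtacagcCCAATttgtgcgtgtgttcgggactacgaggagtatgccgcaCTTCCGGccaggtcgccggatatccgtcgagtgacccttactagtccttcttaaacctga
Cox8a (chr19:7217567-7217866, minus strand): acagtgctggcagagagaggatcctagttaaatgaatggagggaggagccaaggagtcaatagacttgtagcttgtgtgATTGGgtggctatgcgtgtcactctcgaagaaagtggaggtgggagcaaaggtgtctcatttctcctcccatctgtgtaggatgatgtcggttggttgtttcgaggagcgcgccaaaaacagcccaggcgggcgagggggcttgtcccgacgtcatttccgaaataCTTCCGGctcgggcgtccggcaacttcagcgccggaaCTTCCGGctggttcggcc
Cox6a1 (chr5:115348909-115349208, minus strand): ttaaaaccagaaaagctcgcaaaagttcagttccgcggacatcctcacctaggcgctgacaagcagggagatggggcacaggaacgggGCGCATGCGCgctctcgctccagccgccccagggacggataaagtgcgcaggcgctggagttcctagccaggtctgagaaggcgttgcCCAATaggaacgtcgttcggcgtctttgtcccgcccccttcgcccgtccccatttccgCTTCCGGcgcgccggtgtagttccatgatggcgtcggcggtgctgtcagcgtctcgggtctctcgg
Cox8b (chr7:140900397-140900696, minus strand): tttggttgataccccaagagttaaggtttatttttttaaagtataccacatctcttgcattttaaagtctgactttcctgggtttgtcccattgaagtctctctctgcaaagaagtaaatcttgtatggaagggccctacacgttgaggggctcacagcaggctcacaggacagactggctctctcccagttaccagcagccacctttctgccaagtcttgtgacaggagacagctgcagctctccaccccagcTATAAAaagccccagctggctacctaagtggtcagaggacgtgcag
Atp5b (chr10:128083057-128083356, plus strand): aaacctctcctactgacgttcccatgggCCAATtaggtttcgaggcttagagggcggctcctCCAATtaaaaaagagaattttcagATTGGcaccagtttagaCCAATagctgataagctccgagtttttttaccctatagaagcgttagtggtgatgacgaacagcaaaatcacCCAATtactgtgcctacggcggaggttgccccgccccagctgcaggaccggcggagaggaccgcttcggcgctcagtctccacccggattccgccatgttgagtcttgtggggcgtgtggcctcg

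The Atp5b promoter held 5 CCAAT letters, that of Cox8a 2 ETS motifs, and that of Cox8b none of the 5 motifs but TATAAA, which began 5 bases after the RefSeq start and so not where a TATA box lies. Over the 73 members, the YY1 motif was found in 8 (11.0%), against 2.16% of all 16635 promoters and 4.05% of the 7624 whose window held an H3K4me3 level of at least 5 log2 RPM. Of the 8, 5 belong to complex I (Ndufa9, Ndufc1, Ndufs4, Ndufs6 and Ndufs7), and in these the motif began 23 to 36 bases after the start site. The NRF1 motif was in 5 members (6.85%), against 1.38% and 2.37%. The ETS motif was in 17 members (23.3%), against 12.4% and 20.8%, CCAAT in 34 (46.6%), against 38.6% and 39.2%, and TATAAA in 7 (9.59%), against 12.6% and 5.97%. These are matches of letters in a fixed window and were given no test.

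In aged NSPCs the members lay slightly lower as a body, and no single one passed the test. With limma's moderated test and Benjamini-Hochberg adjustment, 0 of the 84 members reached an adjusted p under 0.05, as did 0.00% of all 14858 genes, and 0 members but 1.74% of genes had an unadjusted p under 0.05. edgeR's quasi-likelihood test on whole reads called 0 members, also without adjustment (1.73% of genes), and DESeq2 0 members and 4 genes (0.0269%). The log2 difference, aged minus young adult, was below 0 in 81 of 84 members, with a median of -0.10, while over all genes 49.4% were below 0 and the median was 0.00. Medians were -0.10 in complex I, -0.09 in II, -0.10 in III, -0.10 in IV, -0.09 in V and -0.11 for the assembly factors, so no complex stood apart over the 6 libraries. Without aged derivation 2 they were -0.024 in complex I, -0.031 in II, -0.047 in III, -0.012 in IV, -0.022 in V and -0.095 for the 5 assembly factors. In bulk RNA, fewer cells of a type and less RNA per cell cannot be told apart.

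The members with the smallest p were spread over the complexes. Cox6b2 was 3.86 ± 0.35 in young adult and 3.47 ± 0.19 in aged NSPCs (mean ± SD, n = 3, log2 RPM), a difference of -0.39 (SE 0.19), and its ages overlapped, since young adult derivation 1 lay within the aged range. Ndufaf2 was at 3.53, 3.49 and 3.46 in young adult and 3.34, 3.12 and 3.39 in aged NSPCs, a difference of -0.21 (SE 0.12). Ndufc2 differed by -0.15 (SE 0.08). In both genes every aged library lay below every young adult one. Ndufa10, an accessory subunit of complex I, was at 6.64, 6.69 and 6.72 in young adult and 6.62, 6.27 and 6.60 in aged NSPCs, a difference of -0.18 (SE 0.11). Ndufv3, an accessory subunit of the NADH-oxidising module, was at 6.28, 6.68 and 6.61 in young adult and 6.34, 6.12 and 6.46 in aged NSPCs, a difference of -0.22 (SE 0.13). Ndufa10 did not overlap between ages, and Ndufv3 did. The remaining 5 of the 10 with the smallest p, Atp5g1, Cox5b, Cox7b, Ndufb5 and Uqcrb, differed by -0.17 (Cox5b) to -0.14 (Uqcrb). Cox5b was at 6.03, 6.25 and 6.20 in young adult and 6.09, 5.82 and 6.09 in aged NSPCs, Ndufb5 at 6.18, 6.12 and 6.09 in young adult and 6.12, 5.85 and 6.00 in aged NSPCs and Uqcrb at 5.31, 5.16 and 5.36 in young adult and 5.18, 5.04 and 5.20 in aged NSPCs. Unadjusted p in these 10 ran from 0.0705 (Cox6b2) to 0.185 (Uqcrb). All 3 aged libraries lay below all 3 young adult ones in 5 members (Ndufc2, Ndufa10, Ndufaf2, Cox7a2 and Atp5g1; 2.05% of all genes) and above them in 0 members (3.14% of all genes).

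Most of that shift was carried by aged derivation 2. It was the lowest of the 6 libraries for 74 of 84 members, as for 22.1% of all genes, and the summed level of the members there was 7235 RPM, against 8387 to 8908 RPM in the other 5. Its median member lay 0.22 below the mean of the 6 libraries, and the medians of the other 5 lay between 0.00 and 0.10 from it. This library also had the lowest share of reads on genes, 65.5%, against 67.0% to 68.8% in the other C57BL/6JBabr libraries. The part of that share in the members' levels was not tested. Paired by derivation number, the median aged minus young adult difference was 0.05 in pair 1, -0.27 in pair 2 and -0.08 in pair 3, with 34, 79 and 73 of 84 members below 0. A member was below 0 in all 3 pairs in 29 cases (13.3% of all genes). Without aged derivation 2, 60 of 84 members were below 0 and the median was -0.02, and without any one of the other libraries it was -0.08 to -0.14. Other metabolic lists moved with this library: the median deviation in aged derivation 2 was -0.13 for 13 citrate cycle enzymes and -0.18 for 17 glycolysis enzymes, against -0.03 for all genes. The 13 mitochondrially encoded subunits did not share this pattern, with a median deviation of -0.08 there and their lowest, -0.21, in young adult derivation 2. The 8 oligodendrocyte lineage markers had a median deviation of 0.34 in aged derivation 2 and summed to 1405 RPM there, against 1169 to 1353 RPM in the other 5 libraries, with Mbp above its mean over the 6 libraries and Cspg4 and Pdgfra below theirs. The 6 of 7 astrocyte markers that passed the filter had a median deviation of -0.15 there, and all 7 summed to 1500 to 1758 RPM in young adult and 1285 to 1378 RPM in aged NSPCs. Gfap, the astrocyte filament gene, was at 6.99, 7.36 and 7.12 in young adult and 6.49, 6.36 and 6.99 in aged NSPCs (log2 RPM), and at 6.44 and 5.93 in C57BL/10. Of the 6 astrocyte markers tested 5 were lower in aged NSPCs and 0 were called, and Gjb6 was at 0 reads. Their part in the members' levels was not tested.

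**Figure D2:**
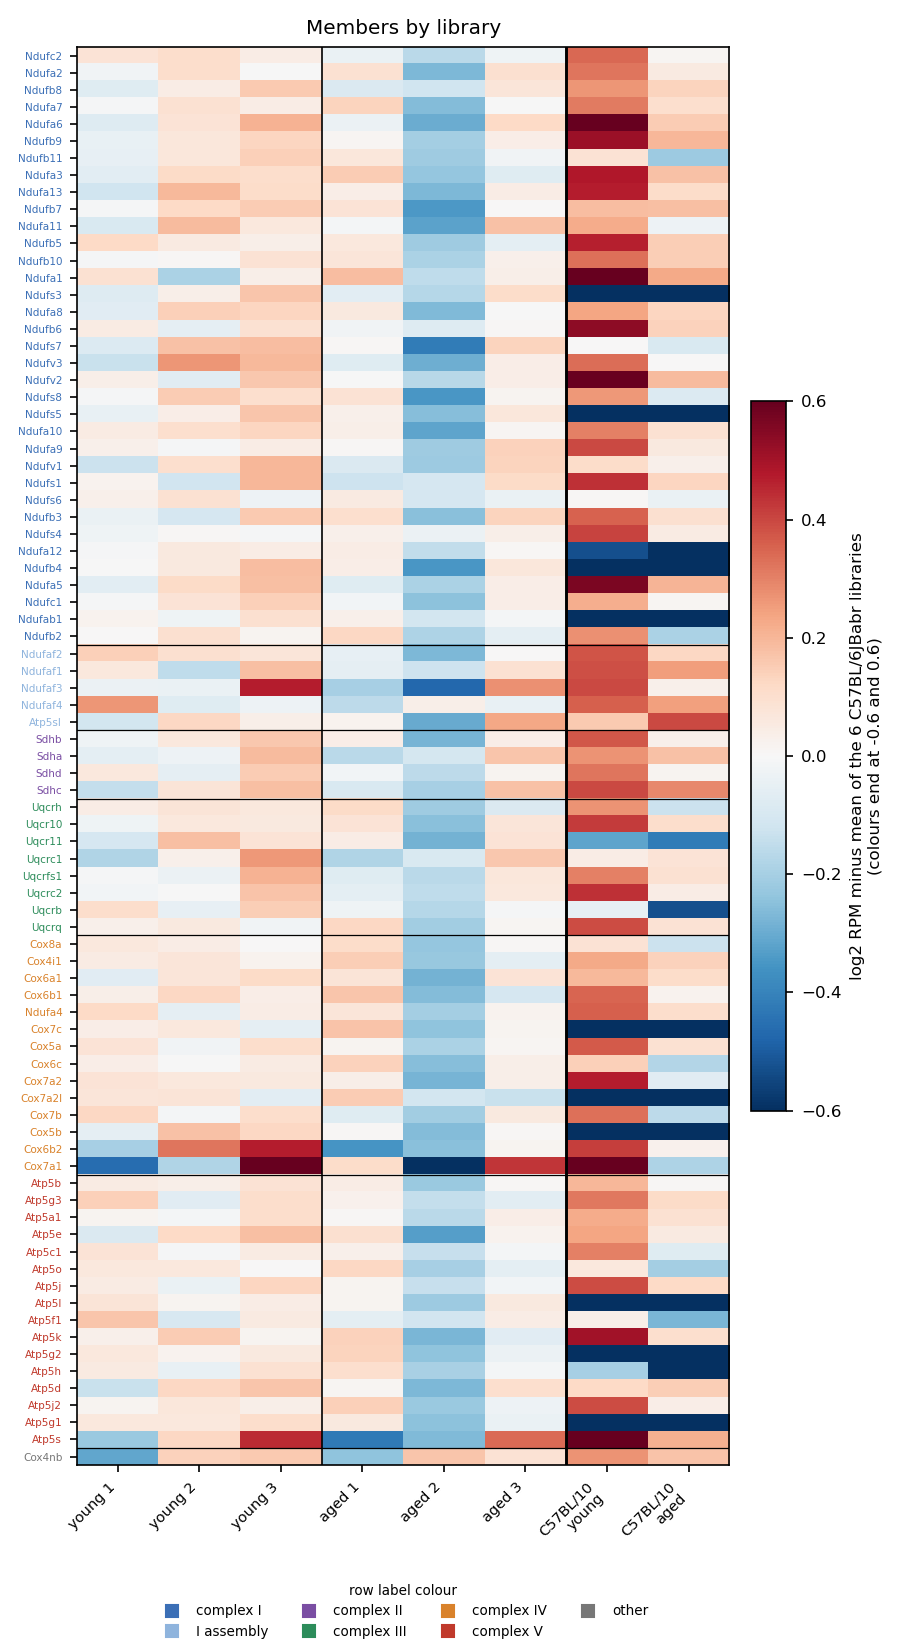
Level of the members that passed the filter (rows, by complex, 1 gene not drawn) in each RNA library (columns), as log2 RPM minus the mean of the 6 C57BL/6JBabr libraries. The column of aged derivation 2 is blue for almost every row, the young adult C57BL/10 column is mostly red, and single rows are dark blue in both C57BL/10 columns.

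With the derivation number as a block, 0 members and 74 genes (0.498%) were called by limma, and 6 members had an unadjusted p under 0.05 (8.27% of genes). That count depends on pair 1, in which the median member was not lower (0.05, with 34 of 84 below 0). Leaving out a library of pair 1 was chosen after seeing the data. It rests the age difference on pairs 2 and 3, in which most members were lower, so the direction of the calls followed from the omission. The libraries of pair 2 showed no pairing among the members (correlation -0.0021). Young adult derivation 1 correlated more with aged derivation 2 (0.38) than with aged derivation 1 (0.32). Without young adult or aged derivation 1 the blocked fit called 10 members, all lower in aged NSPCs, where 2.73% of genes were called and 1.69% were called lower. They were Ndufv3, Ndufs7, Ndufs8, Ndufb7, Ndufa10 and Ndufa13 of complex I, Cox6b2, Cox5b and Cox6b1 of complex IV and Atp5e of complex V. The differences there ran from -0.26 (Cox6b1) to -0.51 (Cox6b2). Without a library of pair 2 the blocked fit called 0 members with a median of -0.02 (3.10% of genes called), and without one of pair 3 it called 0 with a median of -0.11 (0.498% of genes called).

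**Figure D3:**
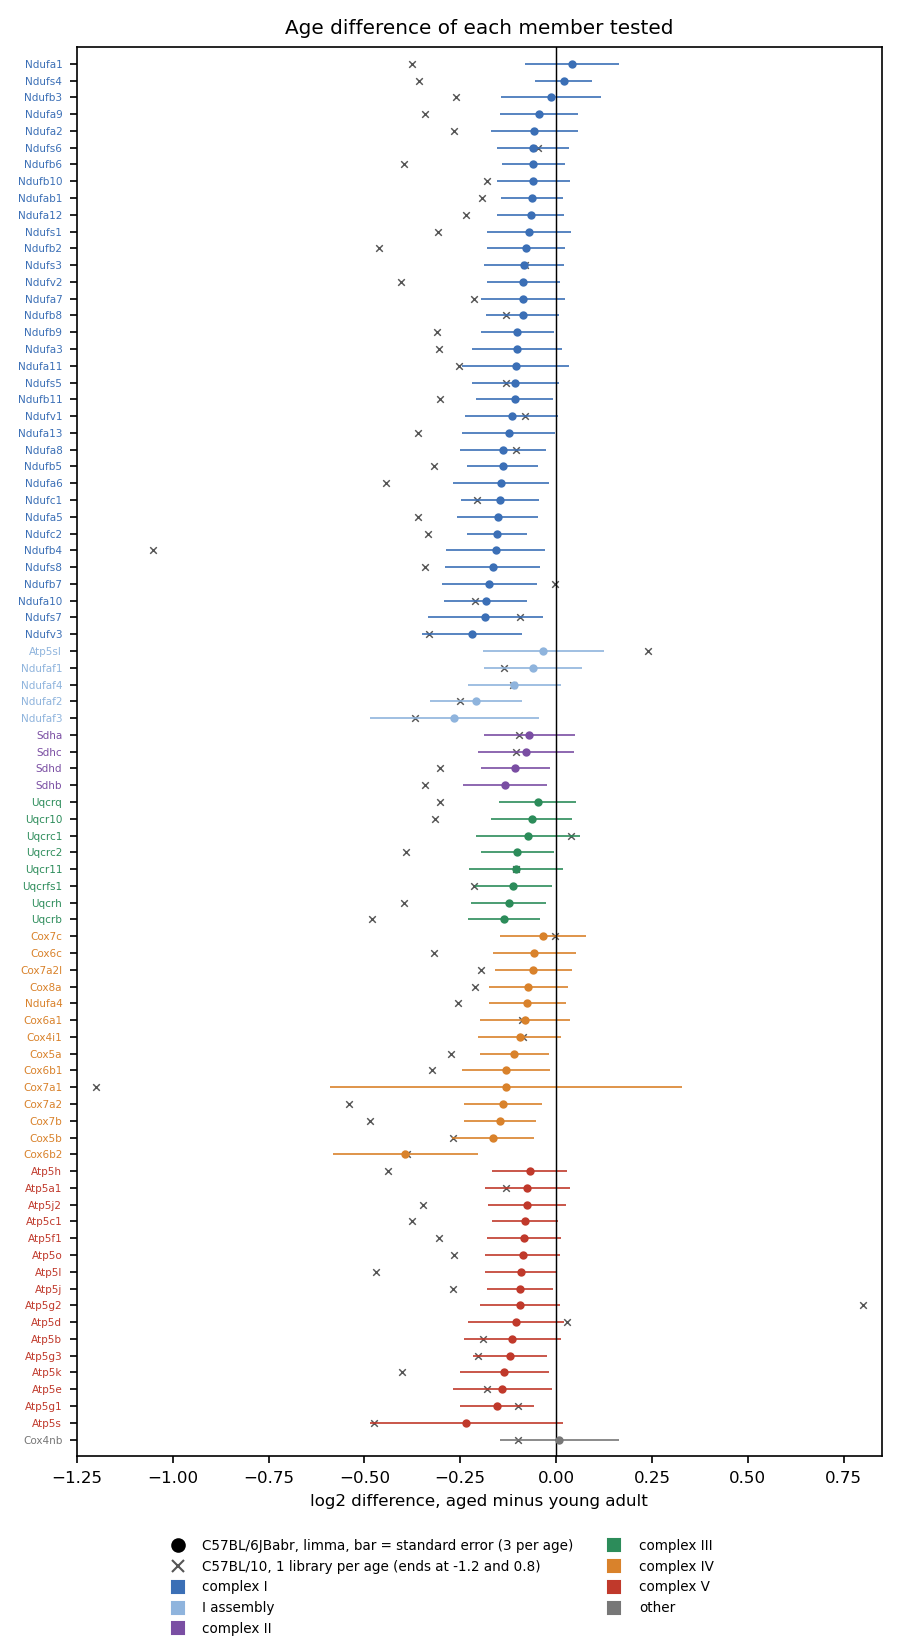
Log2 difference, aged minus young adult, of the members tested (1 gene not drawn); points and bars are the limma estimate and standard error from 3 C57BL/6JBabr libraries per age, crosses the single C57BL/10 pair, and values past the ends of the axis are drawn at -1.2 and 0.8. Points lie left of 0 for all but 3 members and crosses for all but 4.

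The C57BL/10 pair moved in the same direction. Between its 1 aged and 1 young adult library, 80 of 84 members were lower in aged, with a median log2 difference of -0.27, against 52.1% of all genes and a median of -0.01, and 77 members were lower in both strains, as were 4955 of the 14858 genes. The young adult C57BL/10 library lay above all 6 C57BL/6JBabr libraries for 58 members (69.0%, against 43.6% of all genes) and the aged one for 16 (19.0%, against 43.3%). Summed over members, it was 9454 RPM in young adult and 8073 RPM in aged C57BL/10. Cox7b, for example, was at 6.65 in young adult and 6.17 in aged C57BL/10 NSPCs, and Uqcrb at 5.16 in young adult and 4.68 in aged C57BL/10 NSPCs (log2 RPM). With 1 library per age this pair has no replicate of its own. With all 8 libraries in 1 limma fit and strain as a term, 0 members and 0.00% of genes were called for age, 10 members (4.92% of all genes) had an unadjusted p under 0.05, and the median was -0.14. The interaction of age with strain called 0 members and 1 gene (0.00674%), and 3 members had an unadjusted p under 0.05 (1.62% of genes).

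The count of members called for the derivation number depended on the libraries included. An F test of the number, with age as a term, called 6 of 84 members where it called 22.0% of all genes (limma, Benjamini-Hochberg). Ndufaf3, a complex I assembly factor, was at 3.30, 3.29 and 3.81 in young adult and 3.13, 2.86 and 3.61 in aged NSPCs (adjusted p = 0.00786). Uqcrc1, a core subunit of complex III, was at 7.34, 7.55 and 7.78 in young adult and 7.34, 7.43 and 7.69 in aged NSPCs (adjusted p = 0.0102). Both were highest in derivation 3 at each age. Atp5s, coupling factor B, was at 2.03, 2.38 and 2.70 in young adult and 1.83, 1.99 and 2.59 in aged NSPCs (adjusted p = 0.0163), with the same order. Cox6b2 (adjusted p = 0.0287) and Sdha (adjusted p = 0.0347), whose values are given above, were also highest in derivation 3. Cox4nb, which encodes no subunit, was at 5.47, 5.92 and 5.94 in young adult and 5.54, 5.95 and 5.87 in aged NSPCs (adjusted p = 0.0049) and was lowest in derivation 1. edgeR called 5 members, where it called 24.2% of genes. The count changed widely when any library was left out. Each such fit leaves a number with a single library, whose own level then sets its term. It therefore cannot show whether members followed the number, and its counts are not given.

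Counts of some members differed between the strains by far more than between the ages, and all of those members share sequence with other loci. Over all 8 libraries with age as a term, 20 of 84 members differed between C57BL/10 and C57BL/6JBabr (limma, adjusted p under 0.05), 7 higher and 13 lower in C57BL/10, where 29.7% of all genes were called, 18.2% higher and 11.5% lower. All-gene levels were shifted by a median of 0.17 on this scale, and members by 0.19. Under edgeR's quasi-likelihood test on whole reads, with its own scaling and an all-gene median of -0.01, 14 members were called, 0 higher and 14 lower, where 4.25% of genes were higher and 13.1% lower, so the call of the 7 higher ones was not held by both methods. Their edgeR estimates were smaller but still above 0, from 0.08 (Atp5j) to 0.24 (Ndufa1). Quantile normalization under limma left 5 of these 7 called. Without the young adult C57BL/10 library limma called 12 members, 0 higher and 12 lower, and 1425 of 14828 genes, 249 higher and 1176 lower. Strain, facility and derivation cannot be told apart here, and whether reads with several matching places were counted alike in both strains is not known. The list of 6 proliferation genes was also lower in C57BL/10, at 298 and 344 RPM summed, against 527 to 797.6 RPM, and its part in the members' levels was not tested.

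The 7 higher members were small differences in accessory and core subunits. Ndufa1 was at 4.48 to 4.85 in the C57BL/6JBabr libraries and 5.27 in young adult and 4.90 in aged C57BL/10 NSPCs, a fitted difference of 0.41 (SE 0.13, adjusted p = 0.0421) by limma. Ndufv2, a core subunit of the NADH-oxidising module, was at 6.34 to 6.67 and 7.10 in young adult and 6.70 in aged C57BL/10 NSPCs, a difference of 0.39 (SE 0.10, adjusted p = 0.0193). In both genes the C57BL/10 libraries lay above all others. The other higher members were Ndufa5 (0.38), Ndufb9 (0.36), Ndufb6 (0.34), Ndufb5 (0.31) and Atp5j (0.26, log2 difference).

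The 13 lower members had fewer reads counted to them in C57BL/10, and Atp5g2 nearly none. Since all of them share sequence with other loci, as described next, these counts cannot be read as levels of the gene alone. Atp5g2 had 1233 to 3142 reads in each C57BL/6JBabr library and 3 (young adult) and 7 (aged) reads in C57BL/10, which is 0.154% (95% exact Poisson interval 0.0317% to 0.449%) and 0.396% (0.159% to 0.816%) of the C57BL/6JBabr mean in RPM. These intervals cover counting error only. Atp5l, the g subunit of the ATP synthase, was at 5.84 to 6.14 in the C57BL/6JBabr libraries and 2.22 in young adult and 1.76 in aged C57BL/10 NSPCs, a difference of -4.07 (SE 0.11, adjusted p = 1.58e-09) by limma. Ndufb4, an accessory subunit of complex I, was at 4.52 to 5.05 and 2.21 in young adult and 1.16 in aged C57BL/10 NSPCs, a difference of -3.18 (SE 0.19, adjusted p = 9.89e-07). Cox7c, a small subunit of complex IV, was at 6.28 to 6.69 and 3.54 in young adult and 3.54 in aged C57BL/10 NSPCs, a difference of -2.98 (SE 0.10, adjusted p = 1.26e-08). No library of one strain came near the range of the other in any of these. Atp5g1 followed with a difference of -2.29 (SE 0.09, adjusted p = 3.64e-08), at 5.30 to 5.65 and 3.31 in young adult and 3.21 in aged C57BL/10 NSPCs. The differences of Ndufs5, Ndufs3, Cox5b, Ndufab1, Cox7a2l, Ndufa12, Atp5h and Uqcr11 ran from -1.23 (Ndufs5) to -0.37 (Uqcr11), with adjusted p of 1.64e-05 to 0.0377.

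The members called lower in C57BL/10 all had over 5% of their sequence repeated elsewhere in the genome, but not every such member was called. For the same chosen transcript of each gene, every stretch of 50 bases was searched on both strands of GRCm38 outside the gene. Of 39 members with no such stretch elsewhere 0 were called lower, of 18 with up to 5% of stretches elsewhere 0, of 17 with 5 to 20% 4, of 8 with 20 to 50% 7, and of 2 with over 50% both. Over all genes the same bins had 3.08%, 4.62%, 28.8%, 85.9% and 97.3% called lower. Across the 84 members the share elsewhere and the strain difference had a Pearson r of -0.76 and a Spearman rho of -0.61, and across 14593 genes -0.77 and -0.34. Uqcrb (38.9% elsewhere), Atp5f1 (12.7%) and Atp5o (10.3%), which have pseudogene copies, were not called, and Uqcr11 (19.6%) was called lower although no single locus held 150 or more of its stretches. The correlations are across genes of the same libraries, and genes are not independent replicates. With genes over 5% left out, 5 of 57 members were called, all higher, where 20.9% of genes were called, 17.8% higher and 3.08% lower.

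**Figure D4:**
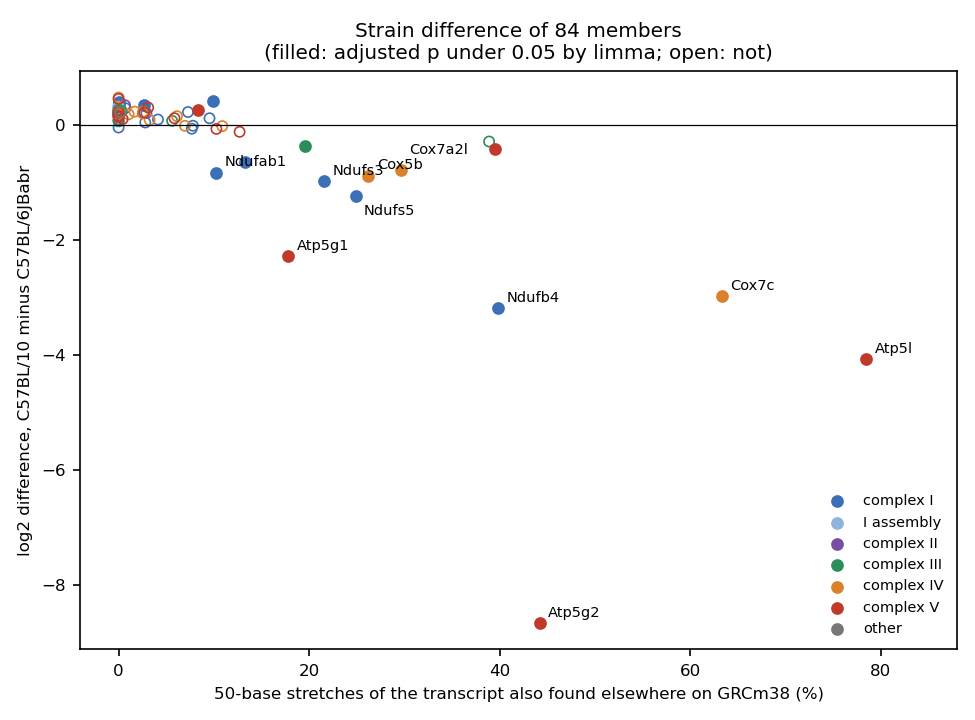
Log2 difference between C57BL/10 and C57BL/6JBabr against the percentage of 50-base stretches of the transcript that are also found elsewhere on GRCm38, for the 84 members, coloured by complex. The points under -0.5 all lie right of 10%, and the members with 0% lie between -0.05 and 0.48.

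A stretch that each of the most affected genes shares base for base with its copies is shown here, as coding sequence of GRCm38.
Atp5g2 (chr15:102665806-102665855, minus strand): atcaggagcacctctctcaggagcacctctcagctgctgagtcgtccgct
Atp5l (chr9:44913417-44913466, minus strand): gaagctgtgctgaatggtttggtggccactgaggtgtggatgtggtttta
Ndufb4 (chr16:37654310-37654359, minus strand): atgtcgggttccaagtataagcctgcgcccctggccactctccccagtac
Cox7c (chr13:86045788-86045837, minus strand): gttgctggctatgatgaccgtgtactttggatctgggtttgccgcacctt

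The first lies in coding exon 3 of Atp5g2 and is also present in the processed pseudogenes Gm10231 (chr17:5816552-5816601) and Gm10175 (chr7:23947144-23947193). The second, in exon 3 of Atp5l, recurs in Gm10221, Atp5l2-ps, Atp5l-ps1 and Gm4045, the third, in exon 1 of Ndufb4, in Ndufb4c and inside Dock8, and the fourth, in exon 2 of Cox7c, in Gm12338 and Gm10012. Processed pseudogenes are DNA copies of spliced transcripts, so they lack the introns of the parent gene. The deposited span of Atp5g2, chr15:102663014-102667749, is that of a transcript of 441 bases, and 100% of its 50-base stretches occur in both Gm10231 and Gm10175. The transcript searched above is a longer one, with 44.2% of its stretches elsewhere. The counting of reads with more than 1 matching place was not given in the sources at hand. The split between a member and its copies is therefore uncertain in every library, and the same counting in both strains cannot be assumed.

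Where the RNA table lists the copies themselves, fewer reads were counted to them in C57BL/10 as well. Gm10231 was at 6.98 to 7.33 log2 RPM in the 6 C57BL/6JBabr libraries and at -4.92 (0 reads) and -4.62 in C57BL/10. Gm10175 was at 6.94 to 7.29, and at -4.92 and -4.77 (0 reads in both). Reads counted to these loci may belong to Atp5g2 and the reverse, and both loci had almost none in C57BL/10. Gm10221, a copy of Atp5l, was at 6.40 to 6.69, and at 2.69 and 2.30 in C57BL/10. Atp5l-ps1 was at 4.99 to 5.28, and at -3.76 and -4.77. The copies of Atp5h (Gm10250), Atp5o (Gm5436) and Cox5b (Gm11273) differed by -0.60, -0.50 and -1.66 on the log2 scale. The age difference was as large without the genes that share sequence: its median was -0.11 in the 57 members with at most 5% of stretches elsewhere and 55 of them were below 0.

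At promoters the members carried strong H3K4me3, a mark of active start sites, at both ages. In the window of 5000 bp with the highest H3K4me3 of each gene, the median was 5.54 log2 RPM in young adult and 5.73 in aged NSPCs, against 3.95 and 4.08 over all genes, and 86 of the 90 passed 1 log2 RPM at some age, against 61.9% of all 25888 windows. The table used here holds 1 pooled value per age for the 3 replicates, so it allowed no test of age. By the rule of a 1.5-fold difference with a level above 1, 0 of 90 windows changed, against 0.212% of all. Aged values were higher in 85 of 90, with a median of 0.20 log2 units among the 86 and 0.21 among all windows above the level. After quantile normalization 31 of 90 were higher and the median was -0.01.

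H3K27me3, the mark laid by Polycomb at repressed genes, was low. Its median at the members was -0.25 log2 RPM in young adult and -0.40 in aged NSPCs, against 0.39 and 0.34 over all genes, and 11 of 90 passed 1 log2 RPM, against 37.4% of all windows. By the same rule 1 window rose (0.718% of all) and 0 fell (203 of all 25888 windows). The one that rose was that of Cox7c, at 0.45 in young adult and 1.14 in aged NSPCs. Its H3K4me3 was at 5.24 and 5.46, and its RNA difference by age was -0.03. The level of 1 does not separate a mark from Input everywhere: at Ndufa8 in aged NSPCs, H3K27me3 and Input were both 1.16. Among the 11 were 3 near-silent isoforms, Ndufa4l2 (3.09 and 3.08), Cox6a2 (2.11 and 2.19) and Cox4i2 (2.08 and 2.24), and abundant genes such as Ndufa10 (2.02 and 2.24) and Atp5k (2.18 and 2.02).

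The near-silent isoforms mostly had little H3K4me3 and differed among themselves in H3K27me3. Their H3K4me3, averaged over both ages, had a median of 0.11 log2 RPM over the 6 genes, against 5.68 over the 84 that passed the RNA filter (lowest 1.29), and it ran from -1.19 (Cox7b2) to 3.09 (Ndufa4l2). Cox7b2, Cox8b and Cox8c had neither mark above 1, Cox6a2 had H3K27me3 alone, and Ndufa4l2 had both. Cox4i2 had H3K27me3, and its H3K4me3 of 1.28 and 1.19 was about equal to its Input of 1.27 and 1.18. The promoter of Cox8b, printed above, lay in a window where H3K4me3 was -0.66 (young adult) and 0.01 (aged). Across the 90 members H3K4me3 and RNA level had a Pearson r of 0.86 and a Spearman rho of 0.39, and across the 84 of 0.49 and 0.25, so the larger Pearson value rests on the 6. Atp5g2 had the low value of 2.68 and 2.82, and the centre of its window lay 4603 bp from the start of the gene in GENCODE vM21. Windows of Cox7a2l and Atp5d were centred 2997 and 2825 bp away from the start of their genes in GENCODE vM21. The RefSeq starts matched for these 2 genes lay inside their windows.

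**Figure D5:**
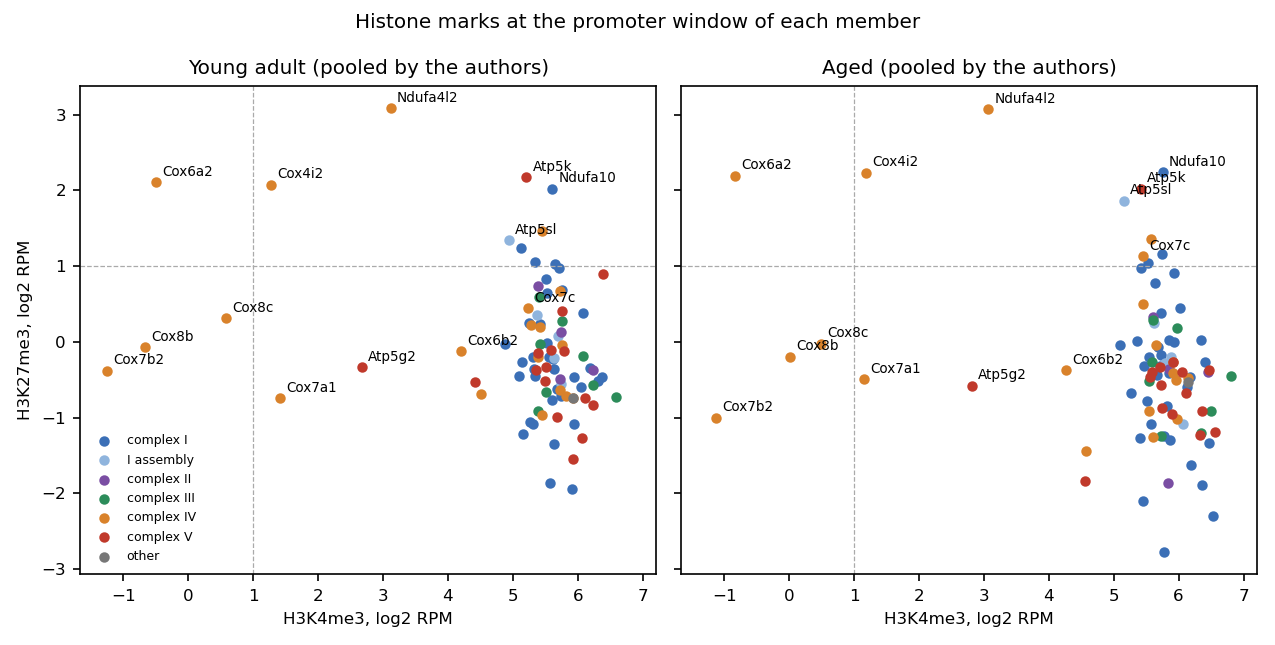
H3K27me3 against H3K4me3 (log2 RPM, pooled by the authors over 3 replicates) at the promoter window of each of the 90 members, in young adult and aged NSPCs, coloured by complex; dashed lines mark the level of 1. Most genes form 1 cloud at high H3K4me3 and low H3K27me3, and Cox7b2, Cox8b, Cox8c and Cox6a2 lie left of the line in both panels.

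No member promoter passed the test for a difference in DNA methylation between ages. In the same windows, 5-methylcytosine read by oxBS was 24.2% ± 0.53 at 3 months and 24.7% ± 0.10 at 18 months (SD, n = 3), from 7369 to 11622 calls per library over the 90 windows, against 30.4% and 31.1% over all windows. edgeR's quasi-likelihood test on methylated and unmethylated calls found 0 of 90 windows at an adjusted p under 0.05 (0.00% of 23795), and 4 had an unadjusted p under 0.05 (Ndufa1, Ndufa9, Ndufaf4 and Uqcrh; 4.74% of all). BS, which reads 5-methylcytosine and 5-hydroxymethylcytosine together, gave 26.5% ± 0.47 and 25.5% ± 0.52, with 0 of 90 called (0.00%) and 8 at an unadjusted p under 0.05 (4.48% of all). These differences rested on single libraries. The members' median difference (aged minus young adult, in percentage points) was 1.06 by oxBS, but 0.19 without young adult replicate 2 and 0.23 without aged replicate 1. By BS it was -0.94, with 39 windows higher and 51 lower in aged, but 0.05 without aged replicate 2, with 45 higher and 45 lower. In the central 1000 bp of these windows the members together were at 4.39% ± 0.21 and 3.92% ± 0.65 by oxBS. All genes were at 11.4% and 11.8% there. Single members that passed the RNA filter reached 84.6% in young adult and 100% in aged NSPCs. These centres were not all at gene starts, as given for Atp5g2 above.

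The near-silent isoforms had a higher median methylation than the other members, with overlap between single genes. Over 1000 bp, the 6 near-silent genes ranged from 51.0% (Cox8b) to 92.0% (Cox8c) in young adult and from 45.9% to 89.7% in aged NSPCs, with a median of 66.6% and 75.2%, while the 84 others had a median of 0.761% and 0.862%. These values come from few calls: 51 (young adult) and 37 (aged) for Cox8b, and 100 and 58 for Cox8c, each summed over 3 libraries. Complex IV, which holds all 6 among its 20 genes, had the highest average over 5000 bp, 32.4% ± 2.98 in young adult and 32.3% ± 1.97 in aged NSPCs, and complex III the lowest, 17.8% ± 0.91 and 18.8% ± 1.65. Ages did not overlap by oxBS in complex II, at 24.1%, 20.5% and 21.2% in young adult and 27.4%, 25.9% and 26.3% in aged libraries, or in complex I, at 22.9% ± 0.57 and 24.4% ± 0.66. Over all gene windows the ages did not overlap either, at 30.5%, 30.1% and 30.7% in young adult and 31.3%, 30.7% and 31.2% in aged libraries, so this was not particular to the 2 complexes. By BS the averages were 26.6% in young adult and 25.1% in aged NSPCs for complex II and 25.5% and 24.1% for complex I, and they were not tested.

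Other genes of the pathway had 0 calls for age, and their lists differed in pattern. Of the 13 mitochondrially encoded subunits 0 were called in either direction and 12 were below 0, with a median of -0.11, but young adult derivations spread widely, from 22752 RPM (derivation 2) to 31759 RPM (derivation 1). In pairs 1 and 2 these genes mostly, but not all, ran the other way from the members, and in pair 3 the same way, with 12 of 13 below 0. Aged minus young adult was, for example, -0.31 in pair 1, 0.10 in pair 2 and -0.06 in pair 3 for mt-Nd1, and -0.48, 0.23 and -0.07 for mt-Co3. The 24 assembly factors outside the name rule had 0 called and 19 below 0 (median -0.07), the 5 carriers and subunits outside it 0 called and 4 below 0 (-0.08), and the 14 regulators of mitochondrial genes 0 called and 5 below 0 (0.03). The 13 citrate cycle enzymes had 0 called and 13 below 0 (-0.12), and the 17 glycolysis enzymes 0 called and 15 below 0 (-0.10). Between strains, 3 of the 13 mitochondrially encoded genes were called higher and 7 lower in C57BL/10 (18.2% and 11.5% of all genes). The 7 lower ones, mt-Atp6, mt-Atp8, mt-Co1, mt-Co2, mt-Co3, mt-Nd3 and mt-Nd4l, had 25.6% (mt-Co1) to 50.5% (mt-Atp6) of their stretches elsewhere on GRCm38. All of them but mt-Co1 were at or near 0 reads in C57BL/10. mt-Nd4, with 31.1% elsewhere, was not called (-0.36). The genes with under 5% elsewhere, mt-Cytb, mt-Nd1, mt-Nd2, mt-Nd5 and mt-Nd6, had differences of 0.30 (mt-Nd5) to 0.61 (mt-Nd1), and the 3 called higher were among them. The sum over the 13, 19693 and 15131 RPM in C57BL/10, therefore cannot be read as lower expression.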

How the data were processed

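RNA-seq, ChIP and bisulphite data of young adult and aged NSPCs were taken as the authors deposited them. The deposited RNA and ChIP values are log2 RPM per gene and per promoter window of 5000 bp, relative to all mapped reads, with ChIP replicates pooled by the authors. Methylation was taken from the deposited counts of methylated and unmethylated calls, and the percent columns deposited beside them were not used. The submitters' processing notes name bcl2fastq 2.15.0.4, FastQC 0.10.1, Trim Galore 0.3.7 and 0.4, STAR 2.3.0, Bowtie2 2.2.5 and Bismark 0.12.5, with GRCm38. How reads with several matching places were treated is not stated in any source at hand.

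RNA log2 RPM was tested with limma 3.58.1 (R 4.3.3) on the 6 C57BL/6JBabr libraries for age, or on all 8 with age and strain, with Benjamini-Hochberg adjustment, after a filter of a mean log2 RPM of at least -2. Every smaller RNA value was a whole number of reads within 0.02 (100%), with 0 set to 0.9 reads by the authors. Larger values, which include many of the members', were not checked in this way and were rounded to whole reads. These recovered reads were tested with edgeR 4.0.16 and DESeq2 1.42.0 as alternatives. Library totals were 16952483 to 41053986 reads. ChIP windows were called changed at a 1.5-fold difference with a level above 1 log2 RPM in an age. Methylation calls were tested with edgeR in windows with at least 10 calls per library. Promoters were centred on the window with the highest H3K4me3 of each gene. Scripts were run in Python 3.11.15 and tested on simulated data.

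Libraries were paired by replicate number. Deviations of same-numbered libraries from their age means correlated over 14858 genes at 0.66, 0.18 and 0.72, each above every correlation between different numbers. Over the 84 members they correlated at 0.32, -0.0021 and 0.79. There young adult derivation 1 correlated more with aged derivation 2 (0.38), and young adult derivation 2 more with aged derivation 1 (0.12). Among the members only the pair at 0.79 was thus matched by number in both directions. Deviations from a shared age mean are not independent of each other. Derivations of an age were made from different mice on different days, so p-values for age in the replicated strain measure the spread between derivations. C57BL/10 had 1 derivation of each age, so its own spread between derivations of an age was not measured. The strain p-values therefore rest mostly on the spread within the other strain. Named genes were the highest member per complex per kb, the 10 with the smallest unadjusted age p, all isoform sets of complexes IV and V, the 4 Sdh genes and up to 10 members called in any fit. The 13 members lower in C57BL/10 were listed in full, beyond that number. The members and gene lists were chosen with earlier results of these data known. Shared sequence was searched as 50-base stretches on GRCm38. 1 member is counted in all totals but is not reported by name here.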

Additional observations from a re-analysis of the deposited data

How the results depend on the processing

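With the replicate block, which pairs derivations of the same number, 0 members were called for age, and 10 when either library of pair 1 was left out of the blocked fit, an alternative chosen after seeing the data. Leaving out 1 library without the block gave 0 calls and a median log2 difference of -0.14 to -0.02, and with the block 0 to 10 calls and -0.16 to -0.02. The strain count was 12 to 23 (12 without the young adult C57BL/10 library), and 5 with genes sharing over 5% of their sequence left out. The derivation count was 1 to 59, and 13 of 90 without the filter on low values (4734 of 25965 genes). With the ChIP rule relaxed, H3K4me3 changes numbered 1 at a lower fold threshold (3.40% of all windows), 1 at a level above 0 (2.07%) and 1 after Input was subtracted (743 of 25888 windows). H3K27me3 changes numbered 2 with all windows (941 of 72923), 2 at a lower fold threshold (7.53%) and 6 at a level above 0 (6.23%). Of these 6, 2 were higher and 4 lower, against 591 higher and 1023 lower among 25888 windows. For ages with C57BL/10, the interaction and both methylation assays, leaving out a library gave 0 calls throughout. Over the named members and all alternatives, 37 strain and 13 derivation results (1 member under 1 alternative each) fell short of the threshold. None of the strain results changed direction. A derivation result is a range over the numbers and has no direction to change. The single library per age in C57BL/10 and the pooled ChIP values limit those comparisons.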
